A study of Homo sapiens with 16 samples.

Results

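The comparison described here is the difference between 2 responses to ultraviolet C light (UV), that of U2OS cells with a stable knockdown of PIP4K2B less that of U2OS cells with a stable knockdown of PIP4K2A. U2OS is a human line that the labels call a sarcoma line. The libraries were chosen by their labels and were 8 of 16 in all, 2 in each of 4 groups: shPIP4K2A cells untreated, shPIP4K2A cells 6 h after UV-C at 30 J/m2, shPIP4K2B cells untreated and shPIP4K2B cells 6 h after the same dose. All 4 groups carried a stable short hairpin RNA and were grown in puromycin, and no empty-vector library entered the comparison. The labels do not say whether a line was 1 clone or a pool, how many hairpins were used, or whether both libraries of a group were grown separately, so the p-values reflect only the spread among these libraries. After removal of ribosomal RNA, total RNA went into strand-specific libraries. A positive difference means that a gene rose more, or fell less, in shPIP4K2B cells.

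PIP4K2A, PIP4K2B and PIP4K2C encode the type II phosphatidylinositol phosphate kinases, which phosphorylate phosphatidylinositol 5-phosphate to phosphatidylinositol 4,5-bisphosphate. PIP4K2A is mostly cytosolic, whereas a share of PIP4K2B is nuclear and is a known substrate of the stress kinase p38, with a rise of nuclear phosphatidylinositol 5-phosphate after UV. UV-C makes pyrimidine dimers that stall RNA polymerase II on the template strand, and it activates the stress kinases JNK and p38, which drive immediate early genes such as FOS.

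No gene passed the test of a difference between the lines in its UV response. edgeR's quasi-likelihood test with Benjamini-Hochberg adjustment called 0 of 20568 genes (0%) at an adjusted p under 0.05, where 1087 genes (5.28%) had an unadjusted p under 0.05, 602 higher (2.93%) and 485 lower (2.36%) in shPIP4K2B cells. DESeq2 called 5: STARD7, RBM14-RBM4 and P3R3URF-PIK3R3, described below, a pseudogene and a gene without a name. The smallest adjusted p in edgeR was 0.19. UV itself changed many genes in each line by the same test. In shPIP4K2A cells 2388 genes (11.6%) rose and 2384 (11.6%) fell, 23.2% of those tested, and in shPIP4K2B cells 2819 (13.7%) rose and 2742 (13.3%) fell, 27% of those tested. Of these, 3308 were called in both lines in the same direction (1530 higher, 1778 lower), which was 69.3% of the calls in shPIP4K2A cells and 59.5% of those in shPIP4K2B cells. The median size of the response of these shared genes was 0.765 log2 in shPIP4K2A and 0.814 log2 in shPIP4K2B cells. The counts depended on single libraries. Of 4772 calls in shPIP4K2A cells there were 1683 or 1877 without untreated replicate 1 or 2 of that line, 7366 without its UV replicate 2, and 2957 or 2955 without shPIP4K2B UV replicate 1 or 2. Of 5561 calls in shPIP4K2B cells there were 1408 or 2058 without untreated replicate 1 or 2 of that line and 1083 or 1613 without its UV replicate 1 or 2.

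The intervals show what size of difference the spread among the 8 libraries leaves possible under TMM scaling. They do not cover a shift shared by genes of like GC content, which is described below. Of 11564 genes that averaged at least 5 CPM (counts scaled to a library total of 1e6), 10487 (90.7%) had a 95% interval of the difference that lay inside 2-fold in either direction, and 4376 (37.8%) inside 1.5-fold. The median standard error was 0.203 log2. Across these genes the 2 responses had a Pearson correlation of 0.853 and a Spearman correlation of 0.833. Without shPIP4K2A UV replicate 1 the Pearson correlation was 0.803, and without replicate 2 it was 0.748. This is a description over genes, which are not independent replicates, and the 2 responses share no library. The fitted difference exceeded 2-fold in 59 genes, in 47 without shPIP4K2A UV replicate 1 and in 187 without replicate 2. The 4 UV-minus-untreated differences of one line lay all above or all below the 4 of the other in 2522 genes (21.8%), 1140 higher (9.86%) and 1382 lower (12%) in shPIP4K2B cells, so for a single gene such a separation is common here.

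**Figure D1:**
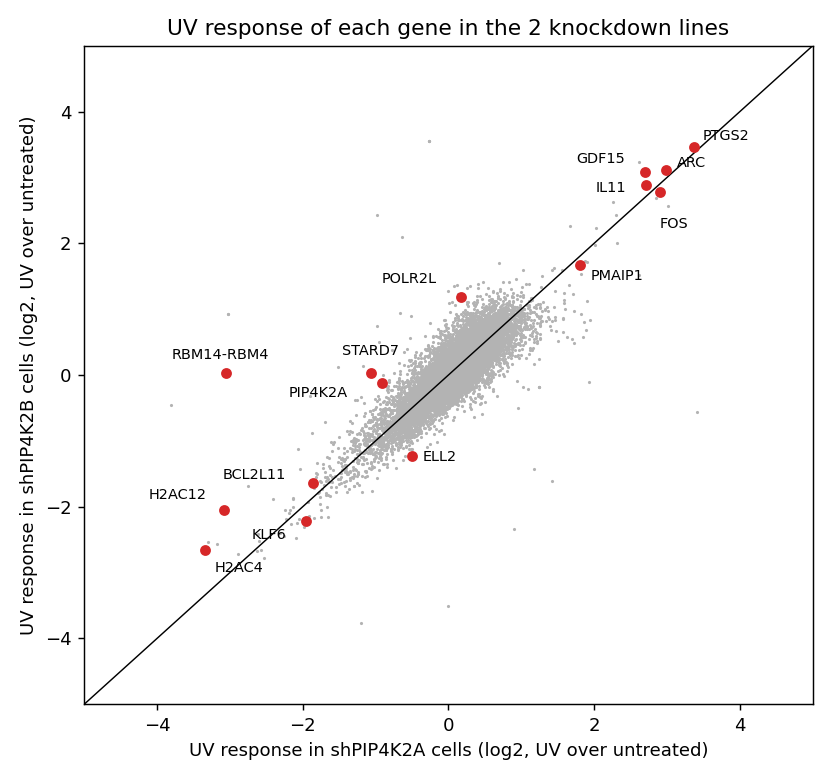
UV response of each of 11564 genes (5 or more CPM on average) in shPIP4K2A cells (x axis, log2 UV over untreated) against shPIP4K2B cells (y axis, same unit); grey points are genes, red points are genes named in the text and the line marks equal responses. FOS, ARC and PTGS2 lie near the line, while STARD7 lies above it, at -1.06 in shPIP4K2A and 0.03 in shPIP4K2B cells.

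The 8 libraries held 28 to 36.3 M expected counts each (in M, 1e6), and the shPIP4K2A UV libraries were the pair that differed most. The log2 CPM gap between their replicates had a standard deviation of 0.416 over 11564 genes, and 227 genes differed by more than 2-fold. In the other 3 groups this standard deviation was 0.136 to 0.238, with 8 to 34 genes beyond 2-fold. Both shPIP4K2A UV libraries stood apart, in different measures. Replicate 1 had a mean fragment length of 254 bases, against 218 in replicate 2 and 201 to 250 bases in the other 13 libraries analysed. It held 50.6 CPM of NDUFS5, a short respiratory chain mRNA, against 15 in replicate 2. It held 9750 CPM of RN7SL1, the RNA of the signal recognition particle, against 32500 in replicate 2, and the 14 libraries other than replicate 1 held 9.94 to 19.5 CPM of NDUFS5 and 14600 to 46200 CPM of RN7SL1. Relative to short genes, long genes stood highest in replicate 2 among the UV libraries analysed. Its median level on the log2 CPM scale was higher in genes longer than 100 kb than in those shorter than 10 kb by 0.452, against 0.299 in replicate 1 and 0.011 to 0.245 in the other 6 UV libraries analysed. Where a difference printed below moved by over 1.5 times without one of these replicates, that value stands beside it, as it does for several other genes. The exceptions are FOS, FOSB, ARC, PTGS2, IL11, PMAIP1, PIK3R1 and PIP4K2C, whose differences were near 0 and for which the range with 1 library left out is in the closing section.

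The replicates also differed by base composition. In the shPIP4K2A UV pair the median log2 gap of replicate 1 over replicate 2 ran from -0.34 for protein-coding genes under 40% GC to 0.26 for those at 60% GC or more. In the untreated shPIP4K2A pair it ran the other way, from 0.23 to -0.3. The gaps of the shPIP4K2B pairs lay between -0.1 and 0.1. The difference of UV responses moved with GC content too, with a median from -0.19 log2 under 40% GC to 0.25 at 60% or more. Without shPIP4K2A UV replicate 1 these medians were -0.34 and 0.43, and without replicate 2 they were -0.02 and 0.11. Among protein-coding genes averaging 5 or more CPM and with an unadjusted p under 0.05, the 350 higher in shPIP4K2B cells had a median GC content of 61.2% and the 267 lower one of 40.9%, against 48.8% for all 10844. Of these 10844 genes, 0 of 1217 under 40% GC and 197 of 1530 at 60% or more were higher at that p. Lower were 95 and 4 of them. The shares of all genes printed beside the lists below take no account of GC content. The part of base composition in the differences was not tested.

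**Figure D2:**
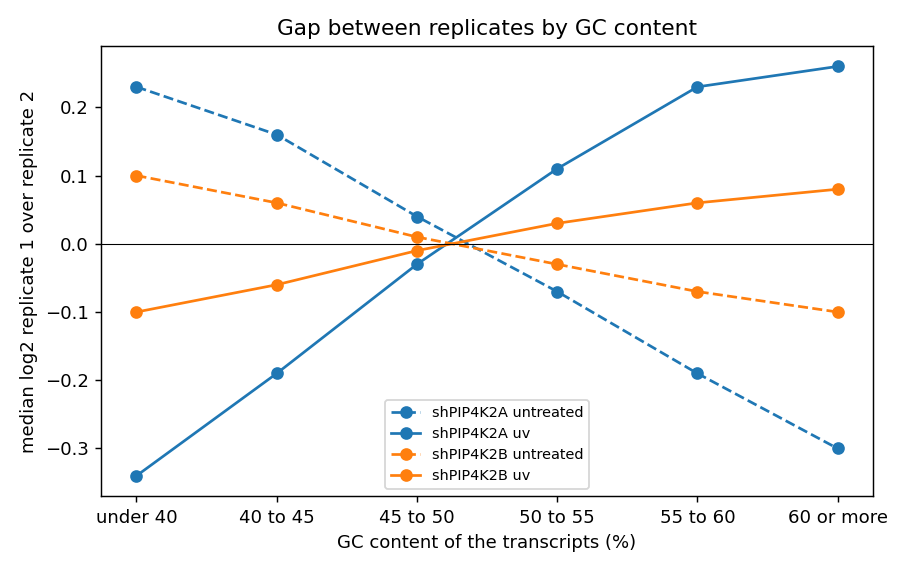
Median log2 gap between replicate 1 and replicate 2 (y axis) of protein-coding genes in 6 classes of GC content in percent (x axis), 1 line for each group. The 2 shPIP4K2A pairs slope in opposite directions, from 0.23 to -0.3 untreated and from -0.34 to 0.26 after UV, and the shPIP4K2B pairs stay between -0.1 and 0.1.

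Levels per library are given below as CPM divided by the TMM factor of the library (scaled CPM), replicate 1 before replicate 2. The targeted genes were checked first. PIP4K2A (ENSG00000150867, chromosome 10, 22534849 to 22714555, minus strand, GRCh38) stood at 15.9 and 14 in untreated and 7.92 and 8.05 in UV-treated shPIP4K2A cells. The shPIP4K2B libraries held 52.5 and 56.2 untreated and 49.6 and 50.6 after UV. All 4 shPIP4K2A libraries were thus below all 4 shPIP4K2B libraries. UV lowered PIP4K2A by -0.91 ± 0.121 log2 (SE, n = 2 per group, edgeR adjusted p = 0.00189) in shPIP4K2A cells, and the response in shPIP4K2B cells was -0.12 ± 0.113 (edgeR adjusted p = 0.473). The difference was 0.79 log2 with a 95% interval of 0.42 to 1.17 and the same value without shPIP4K2A UV replicate 1, but it did not pass the test over all genes (edgeR unadjusted p = 0.000939, adjusted p = 0.867).

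PIP4K2B (ENSG00000276293, chromosome 17, 38765689 to 38800126, minus strand) stood at 85.1 and 88.9 in untreated and 68.8 and 80.4 in UV-treated shPIP4K2A cells. The shPIP4K2B cells held 24.7 and 22.0 untreated and 16.6 and 17.1 after UV, below every shPIP4K2A library. UV lowered it by -0.47 log2 in shPIP4K2B cells (edgeR adjusted p = 0.0215), its response in shPIP4K2A cells was -0.22 (edgeR adjusted p = 0.201), and the difference was -0.25 with an interval of -0.64 to 0.13 (-0.35 without shPIP4K2A UV replicate 1 and -0.15 without replicate 2). PIP4K2C, the third member, is the least active of the kinases. It ranged from 61.3 to 92.0 over the 8 libraries, with a difference of 0.13 and an interval of -0.26 to 0.51.

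Some immediate early genes, among them the AP-1 genes FOS and FOSB, rose in both lines. FOS, a subunit of AP-1, went from 5.04 and 6.39 to 45.3 and 40.1 in shPIP4K2A cells. In shPIP4K2B cells it went from 5.06 and 6.16 to 39.0 and 38.2. Every UV library lay above every untreated one. The rises were 2.90 ± 0.163 and 2.78 ± 0.163 log2 (SE, n = 2 per group, edgeR adjusted p = 7.96e-05 and 9.39e-05), and the difference of -0.12 had an interval of -0.62 to 0.38. ARC, an activity-regulated gene, rose by 2.99 and 3.11 log2, and FOSB, another AP-1 subunit, by 2.84 and 2.72. KLF6, an immediate early transcription factor, fell instead, from 54.9 and 51.6 to 13.5 and 13.9 in shPIP4K2A cells and from 50.6 and 47.9 to 11.2 and 10.1 in shPIP4K2B cells. JUND, an AP-1 subunit rich in GC, rose in both lines, by 0.61 and 1.26 log2, although scaling to ribosomal protein genes turned the first of these into -0.18, and its difference of 0.65 had an unadjusted p of 0.0174 in edgeR. Of 29 list members tested, 9 rose and 3 fell in each line, where 11.6% of all genes rose and 11.6% fell in shPIP4K2A and 13.7% and 13.3% in shPIP4K2B cells, and the median responses of the list were 0.25 and 0.26 log2. No member passed the test of the difference, and 2 higher and 2 lower had an unadjusted p under 0.05, against 2.93% and 2.36% of all genes. The median difference over the list was 0.01 log2, or 0.18 without shPIP4K2A UV replicate 1 and -0.17 without replicate 2, against -0.02 for all genes tested.

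PTGS2, IL11 and CXCL8, inflammatory genes that stress kinases and NF-kB induce, rose in both lines. PTGS2, which encodes the inducible cyclooxygenase, went from 3.63 and 2.45 to 26.0 and 37.3 in shPIP4K2A cells. The shPIP4K2B levels went from 1.70 and 1.63 to 18.4 and 18.3. Both shPIP4K2B levels lay below those of shPIP4K2A cells in the same state, and the rise was 3.37 log2 in shPIP4K2A and 3.46 log2 in shPIP4K2B cells, a difference of 0.09 with an interval of -0.63 to 0.81. IL11, a cytokine of the interleukin 6 family, rose by 2.71 and 2.89 log2. CXCL8, the neutrophil chemokine interleukin 8, rose from 0.606 and 0.581 to 7.88 and 7.35 in shPIP4K2A cells and from 0.990 and 0.620 to 5.07 and 5.56 in shPIP4K2B cells. Its difference of -0.97 log2 (interval -1.74 to -0.20) was -0.91 without shPIP4K2A UV replicate 1 and did not pass the test (edgeR unadjusted p = 0.0194, adjusted p = 0.867). Of 22 members of the list of NF-kB and cytokine genes tested, 7 rose and 2 fell in shPIP4K2A and 8 rose and 3 fell in shPIP4K2B cells, against 11.6% and 11.6% of all genes in the first line and 13.7% and 13.3% in the other.

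The windows around the start sites of FOS and PTGS2 are shown because both genes rose after UV in both lines and the intervals of their differences included 0. Each runs from 250 bases before to 50 bases after the start in RefSeq (GRCh38.p14), 5′ to 3′ on the strand of the gene. The FOS window lies on the plus strand at chr14:75278578-75278877 and the PTGS2 window on the minus strand at chr1:186680374-186680673. Capitals mark TGACG, the half-site of the cyclic AMP response element that ATF and CREB factors bind, on either strand (CGTCA on the other), and the TATA box in the form TATAAA.
FOS: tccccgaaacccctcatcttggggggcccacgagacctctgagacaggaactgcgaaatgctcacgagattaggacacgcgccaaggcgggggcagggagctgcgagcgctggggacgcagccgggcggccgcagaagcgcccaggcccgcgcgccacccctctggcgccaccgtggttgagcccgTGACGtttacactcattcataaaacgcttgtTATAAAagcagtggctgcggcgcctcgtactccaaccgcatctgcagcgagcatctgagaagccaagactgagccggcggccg
PTGS2: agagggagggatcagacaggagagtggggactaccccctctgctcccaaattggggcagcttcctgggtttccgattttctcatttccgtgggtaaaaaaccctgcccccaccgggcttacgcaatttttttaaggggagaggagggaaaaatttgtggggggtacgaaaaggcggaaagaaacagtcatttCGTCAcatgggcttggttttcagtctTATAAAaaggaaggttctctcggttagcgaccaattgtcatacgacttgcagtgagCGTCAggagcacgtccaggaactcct
TGACG stood 64 bases before the start of FOS and 58 before that of PTGS2, with another 24 bases after the start of PTGS2. TATAAA began 33 bases before the start of FOS and 32 before that of PTGS2. Of 35116 windows of the same length, 24.6% held TGACG and 11.5% held TATAAA on either strand, and no matches overlapped in these windows. Neither window held a CArG box, the element of serum response factor, or a consensus AP-1 site, which were in 1.29% and 4.95% of windows. Sequence more than 250 bases before the start was not searched, so these absences hold for the windows only. A match is a description of the letters only.

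Several genes of the p53 response and of apoptosis changed in both lines. GDF15, a stress cytokine, went from 3.25 and 4 to 27.2 and 19.7 in shPIP4K2A cells and from 7.49 and 6.52 to 62.1 and 57.5 in shPIP4K2B cells. The shPIP4K2B libraries lay above those of shPIP4K2A cells in the same state, and the rises of 2.70 and 3.09 log2 differed by 0.39 with an interval of -0.19 to 0.98. Without shPIP4K2A UV replicate 1 this difference was 0.65 (edgeR unadjusted p = 0.00843), and without replicate 2 it was 0.16. PMAIP1, which encodes the BH3-only protein NOXA, rose by 1.81 and 1.67 log2. BCL2L11, which encodes the BH3-only protein BIM, fell from 43.7 and 41.0 to 10.6 and 12.8 in shPIP4K2A cells and from 36.5 and 36.1 to 10.8 and 12.4 in shPIP4K2B cells. BMF, another BH3-only gene, fell by -2.58 and -3.06 log2, and MCL1, which encodes a short-lived survival protein, by -0.88 and -1.08. TNFRSF10B, the gene of a death receptor for TRAIL, fell from 51.8 and 54.6 to 29.9 and 30.2 in shPIP4K2A cells, and in shPIP4K2B cells it stood at 85.9 and 89.8 untreated and 72.3 and 74.6 after UV. Its difference was 0.56 log2 (interval 0.25 to 0.88), the same without shPIP4K2A UV replicate 1, and did not pass the test (edgeR unadjusted p = 0.00298, adjusted p = 0.867). Of 32 p53 targets tested, 8 rose and 9 fell in shPIP4K2A and 10 rose and 7 fell in shPIP4K2B cells. Of all genes 11.6% rose and 11.6% fell in the first line and 13.7% and 13.3% in the other. The median difference of the list was 0.02, or -0.03 without shPIP4K2A UV replicate 1 and 0.05 without replicate 2.

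**Figure D3:**
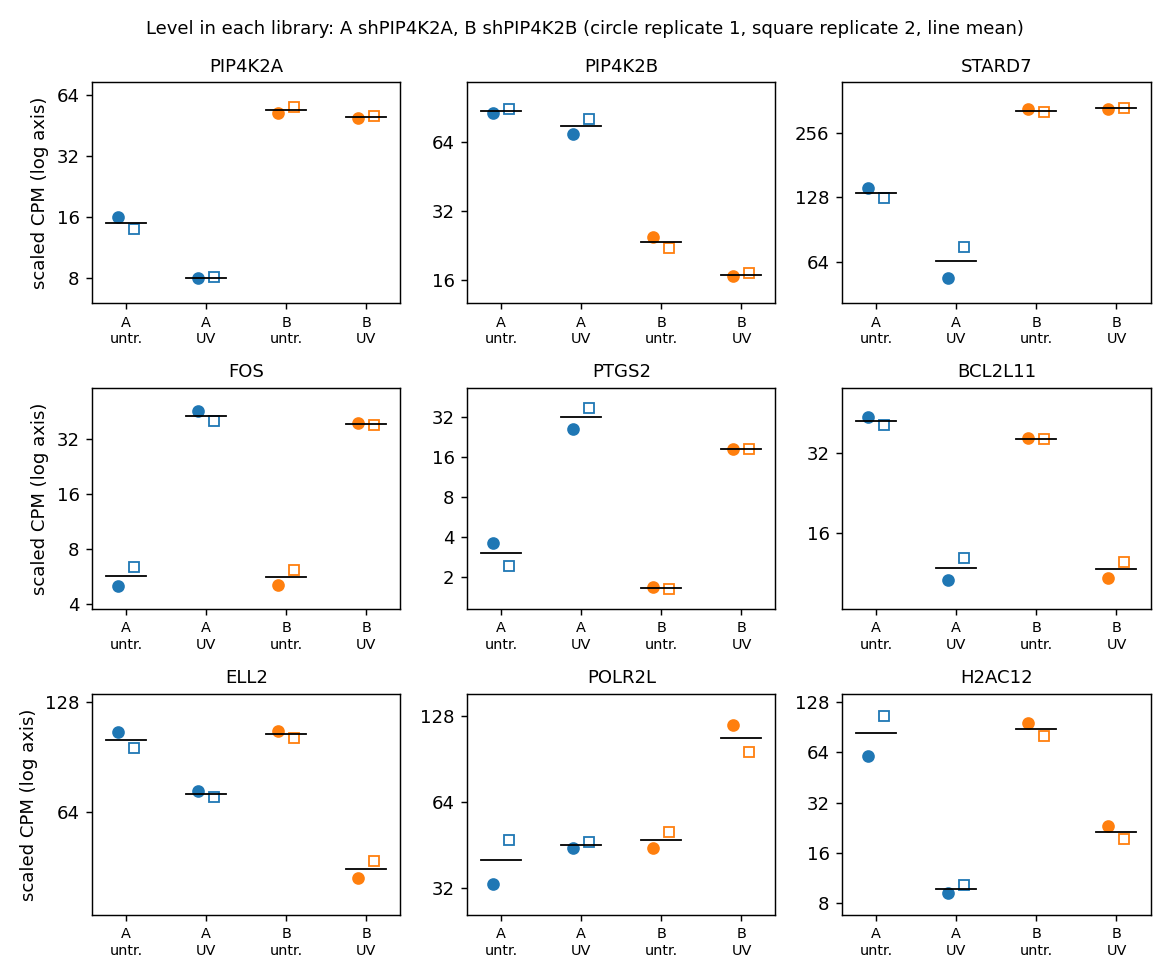
Scaled CPM (log axis) of 9 genes in each of the 8 libraries; circles are replicate 1, squares replicate 2 and lines the mean of the 2. FOS and PTGS2 rise and BCL2L11 falls in both lines, whereas STARD7 goes from 142 and 127 to 54.0 and 75.1 in shPIP4K2A cells and stands between 323 and 337 in all 4 shPIP4K2B libraries.

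Most histone mRNAs fell in both lines. Of 20 replication-dependent histone genes tested, 19 fell in each line, against 11.6% of all genes in shPIP4K2A and 13.3% in shPIP4K2B cells. The medians of the histone genes were -1.70 log2 in shPIP4K2A and -1.72 in shPIP4K2B cells. These mRNAs are made in S phase, end in a stem-loop in place of a poly(A) tail and are degraded when replication stops. H2BC11 fell from 162 and 196 to 30.0 and 28.1 in shPIP4K2A cells and from 187 and 185 to 33.9 and 36.1 in shPIP4K2B cells, and its difference was 0.21 with an interval of -0.17 to 0.59. H2AC12 went from 60.9 and 105 to 9.27 and 10.3 in shPIP4K2A and from 95.6 and 79.8 to 23.2 and 19.3 in shPIP4K2B cells, where both UV libraries stood above both of the other line. Its difference was 1.04 log2 (interval 0.29 to 1.79, edgeR unadjusted p = 0.0121, adjusted p = 0.867). H2AC4 differed by 0.68 (interval -0.06 to 1.41), by 0.40 without shPIP4K2A UV replicate 1 and by 1.01 without replicate 2. An unadjusted p under 0.05 was found for 3 of the 20, all higher in shPIP4K2B cells, against 2.93% of all genes higher and 2.36% lower, and the list's median difference was 0.19, or 0.20 without shPIP4K2A UV replicate 1. Histone genes are near-identical copies, so the split of reads among single genes is uncertain.

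Genes of protein synthesis and respiration rose on the TMM scale, but this direction rested on the scaling. Of 79 cytosolic ribosomal protein genes, 65 rose and 0 fell in shPIP4K2A cells and 73 rose and 0 fell in shPIP4K2B cells. Of all genes 11.6% rose in the first line and 13.7% in the other. The medians of the list were 0.84 and 0.88 log2. Scaling to the ribosomal protein genes themselves put them at 0.04 and -0.02, near 0 by construction, and so cannot test their rise. It moved the median of all genes to -0.77 and -0.89. Of 76 nuclear-encoded respiratory chain genes, 50 rose in shPIP4K2A and 56 in shPIP4K2B cells, and 0 fell in either. Their medians were 0.64 and 0.73 log2 under TMM, and -0.14 and -0.17 with ribosomal protein gene scaling. The difference depended less on this choice, with a median over all genes of -0.02 under TMM and -0.12 under that scaling. For the ribosomal protein genes the median difference was 0.08, with 10 members higher and 3 lower at an unadjusted p under 0.05, against 2.93% and 2.36% of all genes. It was 0.25 without shPIP4K2A UV replicate 1 and -0.06 without replicate 2, so its sign followed 1 library. RPS27, a small ribosomal subunit protein, stood at 58.2 and 109 untreated and 93.7 and 107 after UV in shPIP4K2A cells, and at 83.1 and 95.6 and then 231 and 216 in shPIP4K2B cells.

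Among genes of RNA polymerase II and its elongation factors, 5 of 31 had an unadjusted p under 0.05, all higher in shPIP4K2B cells, against 2.93% of all genes, and 0 passed the test of the difference. POLR2L, a small subunit that RNA polymerases I, II and III share, stood at 33.0 and 46.9 untreated and 44.2 and 46.3 after UV in shPIP4K2A cells. In shPIP4K2B cells it went from 44.2 and 50.1 to 119 and 95.3, so that both UV libraries of that line lay above the other 6. The difference was 1.00 log2 (interval 0.44 to 1.57, edgeR unadjusted p = 0.00283, adjusted p = 0.867) and 0.98 without shPIP4K2A UV replicate 1. POLR2J, another polymerase II subunit, differed by 0.78, POLR2H, a shared subunit, by 0.67, POLR2E, also shared, by 0.59, and NELFB, a subunit of the negative elongation factor, by 0.55. The GC content of the 5 genes was 54.3 to 63.9%, above the median of 48.8%. Among protein-coding genes averaging 5 or more CPM, those higher at that p were 46 of 1688 at 50 to 55% GC. They were 89 of 1721 at 55 to 60% and 197 of 1530 at 60% or more, so 2.93% is not matched for GC content. The median difference of the list was 0.07, or 0.23 without shPIP4K2A UV replicate 1 and -0.02 without replicate 2.

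Mitotic genes had a median difference of -0.22 over 36 tested, or -0.17 without shPIP4K2A UV replicate 1 and -0.14 without replicate 2, with 1 member higher and 4 lower at an unadjusted p under 0.05, against 2.93% and 2.36% of all genes, and 0 past the test. CENPE, the kinetochore motor, stood at 121 and 103 untreated and 156 and 119 after UV in shPIP4K2A cells, and at 125 and 116 and then 85.8 and 92.7 in shPIP4K2B cells. Its GC content was 35.5%, and its difference was -0.73 log2 (interval -1.19 to -0.26), or -0.51 without shPIP4K2A UV replicate 1. AURKB, a kinase of the chromosomal passenger complex with a GC content of 56.1%, was the member that stood higher, at 0.45.

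SMAD7 and PIK3R1 fell in both lines. SMAD7, the inhibitory SMAD of TGF-beta signalling, fell by -1.82 log2 in shPIP4K2A and -1.55 in shPIP4K2B cells, a difference of 0.27 with an interval of -0.11 to 0.65. Of 50 phosphoinositide kinases and phosphatases tested, 3 rose and 10 fell in shPIP4K2A and 6 rose and 14 fell in shPIP4K2B cells, against 11.6% and 11.6% of all genes in the first line and 13.7% and 13.3% in the other. PIK3R1, the regulatory subunit of class I phosphoinositide 3-kinase, fell by -1.48 and -1.58, a difference of -0.10 with an interval of -0.54 to 0.35. PIP4K2A and PLCB1 were the list's members with an unadjusted p of the difference under 0.05. PLCB1, a phospholipase C that cleaves phosphatidylinositol 4,5-bisphosphate, stood at 13.4 and 13.8 and then 17.8 and 16.4 in shPIP4K2A cells and at 13.3 and 12.7 and then 12.1 and 11.3 in shPIP4K2B cells, a difference of -0.48 log2 (interval -0.86 to -0.09). In all 35 lists, the 4 lists of cell type markers included, 0 members passed the test of the difference, and the medians of the difference ran from -0.24 to 0.25.

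**Figure D4:**
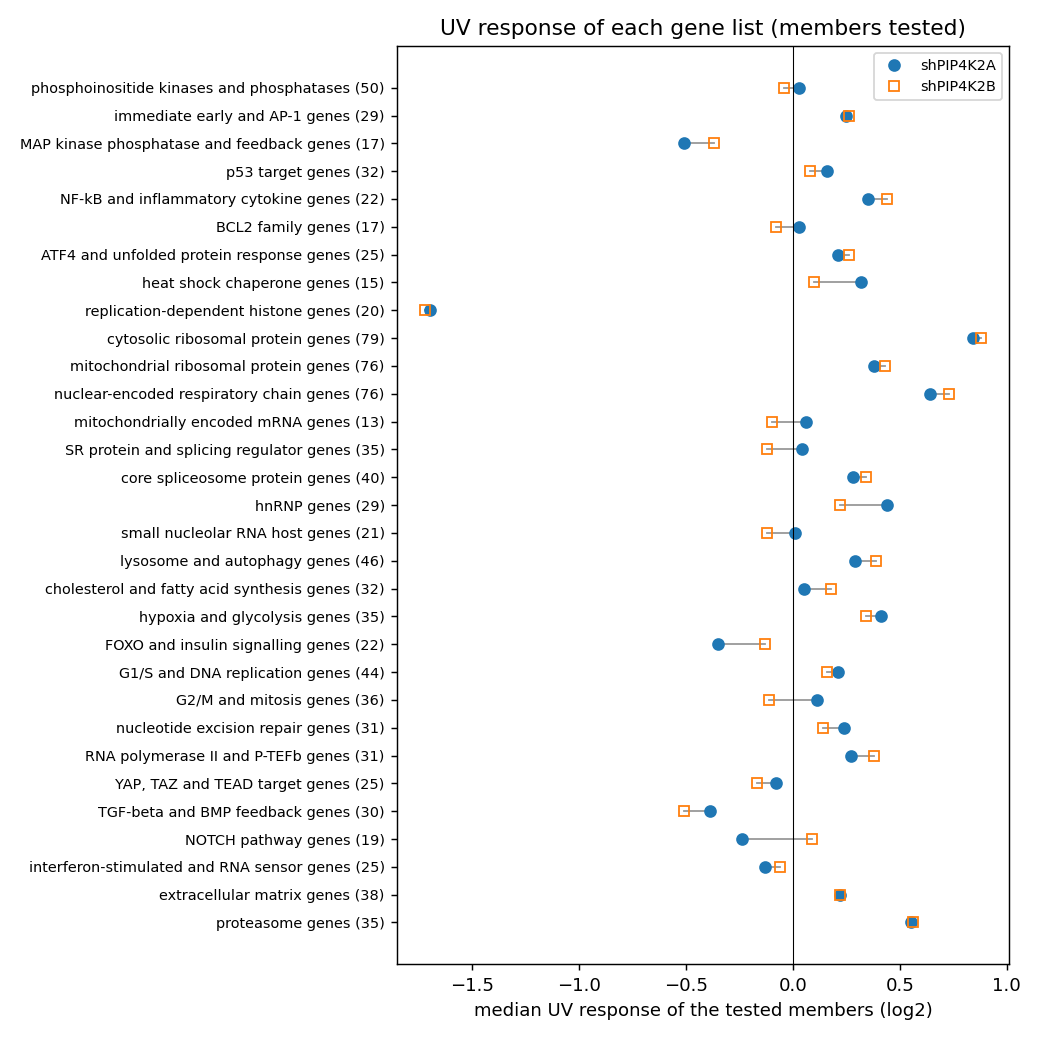
Median UV response (x axis, log2 UV over untreated) of 31 gene lists in shPIP4K2A cells (circles) and shPIP4K2B cells (squares); the number of members tested stands in brackets. The replication-dependent histone genes lie lowest, at -1.70 and -1.72, and the cytosolic ribosomal protein genes highest, at 0.84 and 0.88.

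The genes with the smallest unadjusted p for the difference were looked at next, and they were chosen after their values were seen. STARD7 (ENSG00000084090, chromosome 2, 96184859 to 96208825, minus strand), which encodes a transfer protein for phosphatidylcholine, stood at 142 and 127 untreated and 54.0 and 75.1 after UV in shPIP4K2A cells. In shPIP4K2B cells it stood at 331 and 323 untreated and 333 and 337 after UV. All 4 shPIP4K2A libraries lay below all 4 shPIP4K2B libraries. UV lowered STARD7 by -1.06 ± 0.152 log2 (SE, n = 2 per group, edgeR adjusted p = 0.0026) in shPIP4K2A cells, and its response in shPIP4K2B cells was 0.03 ± 0.149 (edgeR adjusted p = 0.889). The difference was 1.09 log2 with an interval of 0.61 to 1.57. It did not pass edgeR's test (unadjusted p = 0.000589, adjusted p = 0.867), was 0.88 without shPIP4K2A UV replicate 1 (edgeR adjusted p = 0.184) and passed DESeq2's test at an adjusted p of 0.00552.

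The double knockdown and the empty vector give STARD7 levels that the comparison did not use. With factors computed over 15 libraries, double-knockdown cells stood at 137 and 129 untreated and 78.1 and 80.6 after UV. Empty-vector cells stood at 274 in the 1 untreated library used and at 302 and 297 after UV. Both lines with a knockdown of PIP4K2A were therefore low and lower after UV, as was PIP4K2A itself, at 20.3 and 20.5 untreated and 10.2 and 10.1 after UV in the double knockdown. The labels do not say whether both lines carried the same PIP4K2A hairpin. Whether a hairpin or the low PIP4K2A acts on STARD7 was not tested, and the design cannot tell them apart.

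ELL2 (ENSG00000118985, chromosome 5, 95885098 to 95962071, minus strand), an elongation factor of RNA polymerase II, fell in both lines. It went from 106 and 96.1 to 73.0 and 70.3 in shPIP4K2A cells and from 107 and 102 to 42.3 and 47.2 in shPIP4K2B cells, where both UV libraries were the lowest of the 8. The falls were -0.50 and -1.23 log2 (edgeR adjusted p = 0.0125 and 0.000289), and the difference was -0.73 (interval -1.08 to -0.39, edgeR unadjusted p = 0.000936, adjusted p = 0.867) and -0.70 without shPIP4K2A UV replicate 1. DBF4, the activator of the replication kinase CDC7, fell by -0.62 in shPIP4K2A and by -1.29 in shPIP4K2B cells.

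HNRNPA2B1, a nuclear RNA-binding protein gene, rose from 466 and 386 to 822 and 629 in shPIP4K2A cells on the TMM scale (0.77 log2, or -0.05 with ribosomal protein gene scaling) and stood at 492 and 418 and then 422 and 476 in shPIP4K2B cells. Its difference was -0.79 log2, or -0.58 without shPIP4K2A UV replicate 1. SCARNA10, a guide RNA of Cajal bodies, rose from 34.5 and 35.9 to 118 and 90.9 in shPIP4K2A and from 37.4 and 38.0 to 53.2 and 65.9 in shPIP4K2B cells, where the scaling to ribosomal protein genes turned 0.66 log2 into -0.24.

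Other genes among the smallest unadjusted p stood higher after UV in shPIP4K2B cells. TREX1, which encodes an exonuclease that degrades cytosolic DNA, stood at 6.04 and 7.18 untreated and 6.55 and 6.19 after UV in shPIP4K2A cells, and at 6.59 and 7.23 and then 11.5 and 13.2 in shPIP4K2B cells. Its difference was 0.89 log2 (interval 0.40 to 1.38). ATP5F1D, a subunit of ATP synthase, differed by 0.83, SNRPD2, a core protein of spliceosomal particles, by 0.82, POLL, a repair DNA polymerase, by 0.70, and UNC119, a chaperone of lipid-modified proteins, by 0.68. None of these 5 passed edgeR's test of the difference, each with an adjusted p of 0.867, and their GC content was 54.4 to 67.6%.

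A few RNAs that are hard to count had the largest values. RBM14-RBM4, a readthrough gene that shares exons with RBM14 and RBM4, so that the split of reads is uncertain, stood at 24.4 and 36.8 untreated and 2.57 and 4.81 after UV in shPIP4K2A cells. The other line stood at 24.5 and 33.8 and then 34.5 and 24.9. Its difference of 3.08 log2 had the smallest unadjusted p among the named genes (edgeR unadjusted p = 5.43e-05, adjusted p = 0.372). The mitochondrial ribosomal RNAs, which are targets of ribosomal RNA removal, rose in shPIP4K2B cells. MT-RNR1 stood at 41.7 and 58.2 and then 19.0 and 31.7 in shPIP4K2A and went from 20.7 and 57.8 to 148 and 275 in shPIP4K2B cells, and MT-RNR2 differed by 2.72 log2 in the same direction. P3R3URF-PIK3R3, another readthrough gene, was the 1 gene whose responses passed the test in opposite directions. It was at 0 in both untreated shPIP4K2A and both UV-treated shPIP4K2B libraries, and stood at 2.29 and 0.897 after UV in shPIP4K2A and at 0.481 and 2.08 untreated in shPIP4K2B cells.

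The 2 shPIP4K2A UV libraries gave different answers when each was used without the other. Without replicate 1, 0 of 21688 genes (0%) passed the test and 2915 (13.4%) had an unadjusted p under 0.05. Without replicate 2, 269 of 21765 genes (1.24%) passed, 130 higher (0.597%) and 139 lower (0.639%). In each case the spread of the group with 1 library left was taken from the other groups. Of those 269 genes, 267 were tested without replicate 1, 183 had the same sign there, and 51 of these had an unadjusted p under 0.05. Their median size was 1.14 log2 with replicate 1 alone and 0.258 log2 with replicate 2 alone. These genes were selected in the fit with replicate 1 alone, so a larger size there was partly built in. The 2 fits shared every library except the shPIP4K2A UV ones, so agreement in sign was partly built in and is no independent support. STARD7 (adjusted p = 0.00252), ELL2 (0.0296), RBM14-RBM4 (0.00414), MT-RNR1 (0.0243), SCARNA10 (0.0126), DBF4 (0.0444), CENPE (0.0165) and HNRNPA2B1 (0.0259) were among the 269 in edgeR.

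**Figure D5:**
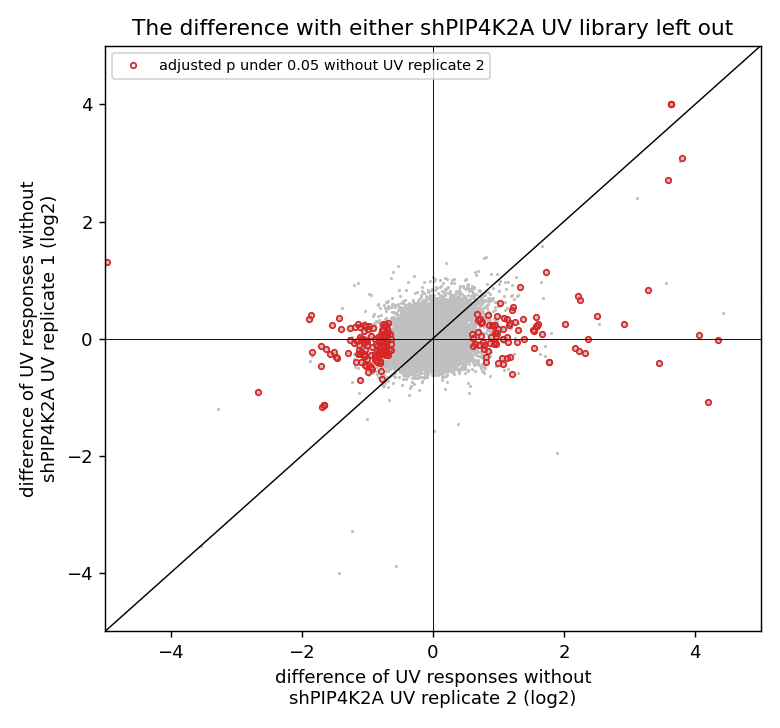
Difference of UV responses (log2) without shPIP4K2A UV replicate 2 (x axis) and without replicate 1 (y axis) for genes that averaged 5 or more CPM. Red circles passed the test without replicate 2 and the line marks equal values. The fits on the 2 axes share every library except the shPIP4K2A UV ones, so agreement in sign is partly built in. Red circles were selected by the fit on the x axis, so their larger size there is partly built in too. Most red circles lie near 0 on the y axis, and 138 of 207 have the same sign on both axes.

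The weighted transcript length, the mean length of a gene's transcripts weighted by their abundance, was a second readout. Of 11516 genes tested with limma, 0 (504 at an unadjusted p under 0.05) differed between the lines in their change of length at an adjusted p under 0.05, and UV changed 0 in shPIP4K2A and 5 in shPIP4K2B cells. The gene with the smallest p was ZNF778, a zinc finger gene, whose weighted length went from 6232 and 6752 to 3271 and 3157 bases in shPIP4K2A cells and from 4294 and 4546 to 4680 and 5571 bases in shPIP4K2B cells (difference 1.22 log2, limma adjusted p = 0.828). MARF1, a regulator of oocyte RNAs, went from 4320 and 4306 to 6383 and 6813 bases in shPIP4K2A and stood at 5412 and 5058 and then 4640 and 5222 bases in shPIP4K2B cells (difference -0.70 log2). Both were chosen after their values were seen. Without shPIP4K2A UV replicate 2, 80 genes passed, and without replicate 1, 1 gene passed.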

How the data were processed

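Expected counts, which per the file headers RSEM estimates per gene, were deposited by the authors without normalization, with 60666 genes in each library. STAR, SAMtools, RSEM and GRCh38 are named in the submitters' processing notes. Which annotation release and strand setting were used is not stated in the sources used here, so antisense and overlapping genes may share reads. Per the file headers the authors' tables also give a weighted transcript length, an other value in bases.

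Counts were rounded and fitted with edgeR 4.0.16 in R 4.3.3 over the 8 libraries with 1 term per group, after filterByExpr at a minimum count of 10 and TMM scaling. The standard error is the size of the log2 value divided by the square root of F. Lengths were fitted with limma 3.58.1 on the log2 scale where a gene averaged 100 or more counts and had at least 10 in each library. DESeq2 1.42.0 was an alternative. Positions, gene types and GC content came from GENCODE release 29, which held 58420 of the genes, and promoter windows from RefSeq. The fits were also run on simulated counts and lengths with known changes. The simulated replicates had no gap linked to GC content, so this does not cover the gaps seen in the shPIP4K2A pairs. Python 3.11.15 handled the tables.

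The comparison, the members and the lists were chosen with earlier results of these data known. The naming rule took the PIP4K genes, the 15 largest differences in each direction past the test that averaged 5 or more CPM and had separate responses, up to 4 members per list past the test, up to 6 genes with opposite responses past the test and the 3 largest length shifts each way. Since no difference passed, all other genes named were chosen after their values were seen.

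Alternatives were RLE factors, scaling to ribosomal protein genes, no filter, CPM above 1 in 2 libraries, DESeq2, 12 or 15 libraries in the fit, a replicate block, each library left out, a mean count of 30 or 500 for lengths and, added after seeing the data, sample quality weights in limma.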

Additional observations from a re-analysis of the deposited data

Results flagged for a closer look

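For 7 of the 45 genes named with a difference of UV responses, every UV-minus-untreated difference was below 0 in one line and above 0 in the other. In shPIP4K2A cells the differences were below 0 and in shPIP4K2B cells above 0 for STARD7 (difference 1.09 log2), MT-RNR1 (3.41), UNC119 (0.68), POLL (0.70) and POLR2H (0.67). The other way round stood PLCB1 (-0.48) and P3R3URF-PIK3R3, whose fitted difference of -17.06 depends on the prior count, since 4 of the 8 libraries were at 0, and is no measure of size. edgeR's test of the difference itself gave each of the 7 an adjusted p of 0.867. Of the 7, only P3R3URF-PIK3R3 passed the test of the UV response in both lines. The response of STARD7 in shPIP4K2B cells was 0.03 (edgeR adjusted p = 0.889). With ribosomal protein gene scaling, STARD7, UNC119, POLL and POLR2H fell below 0 in shPIP4K2B cells as well. PLCB1 did so in shPIP4K2A cells, so these opposite signs rested on TMM scaling. Many of the 45 genes were named for a small p of this same difference, so the count of 7 describes chosen genes only. The share of all genes with opposite responses of this kind was not computed.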

How the results depend on the processing

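No gene passed the test of the difference under TMM, RLE factors, scaling to ribosomal protein genes, CPM above 1 in 2 libraries, or 12 or 15 libraries in the fit. Without a filter on low counts 103 genes were higher and 101 lower, of which 65 were under 1 CPM and 91 at 5 CPM or more. The absence of calls thus depended on filtering low counts. DESeq2 called 4 higher and 1 lower. Leaving out 1 library gave 0 to 130 higher and 0 to 139 lower, and the calls appeared only without shPIP4K2A UV replicate 2. Sample quality weights, tried after seeing the data, called 7336 higher and 7076 lower, with weights from 0.0171 for shPIP4K2A UV replicate 2 to 27.4 for shPIP4K2B UV replicate 1. They set aside 1 library of a pair in groups of 2 and favoured replicate 1 of the shPIP4K2A UV pair, so these calls are not used.

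The labels do not say that replicate numbers pair the groups. Correlations of the replicate gaps were 0.41 between the untreated groups and 0.34 between the UV groups, and -0.4 to 0.01 for the 4 pairs of an untreated with a UV group, so sharing by number within a state cannot be told from these 2 pairs and the numbers were not used as a pairing. With the replicate block 3 genes were higher and 0 lower, among them MT-RNR1 and MT-RNR2.

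Genes called for UV numbered 12915 in shPIP4K2A and 14004 in shPIP4K2B cells with ribosomal protein gene scaling, 16106 and 18279 with quality weights, and 1683 to 7366 and 1083 to 8245 with 1 library left out. For length, 1 gene was called at a mean count of 30 and 0 to 80 with 1 library left out.

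Ribosomal protein gene scaling turned these UV responses below 0. In shPIP4K2A cells they became -0.56 for PIP4K2C, -0.60 for POLR2L, -0.68 for ATP5F1D, -0.52 for SNRPD2, CENPE and POLR2E, -0.47 for PLCB1, -0.18 for JUND, -0.50 for RPS27 and POLR2J and -0.05 for HNRNPA2B1. In shPIP4K2B cells they became -0.55 for PIP4K2C, -0.88 for RBM14-RBM4, -0.87 for STARD7, -0.24 for SCARNA10, -0.52 for UNC119 and POLR2H, -0.06 for TREX1, -0.60 for POLL, -0.61 for AURKB, -0.04 for POLR2E and -0.46 for NELFB. The difference for PTGS2 became -0.02. Quality weights gave -0.05 for ATP5F1D and -0.06 for RPS27 in shPIP4K2A cells and differences of 0.05 for FOS and 0.03 for PMAIP1. With CPM above 1 the response of RBM14-RBM4 in shPIP4K2B cells was -0.00.

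With 1 library left out the difference changed sign for PIP4K2C (-0.01 to 0.27), PIK3R1 (-0.23 to 0.04), ARC (-0.19 to 0.50), FOS (-0.30 to 0.04), FOSB (-0.44 to 0.26), PMAIP1 (-0.51 to 0.34), PTGS2 (-0.23 to 0.36) and IL11 (-0.10 to 0.51). The response in shPIP4K2A cells did so for TREX1 (-0.17 to 0.08), POLR2L (-0.05 to 0.46), ATP5F1D (-0.09 to 0.33), RPS27 (-0.12 to 0.79) and NELFB (-0.28 to 0.10), and that in shPIP4K2B cells for RBM14-RBM4 (-0.25 to 0.28) and HNRNPA2B1 (-0.13 to 0.11). The cause was not tested.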
